A study of Mus musculus with 10 samples.

Results

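Clade B serpins are the intracellular branch of the serpin family of protease inhibitors. Their members here are the 27 of 22740 rows of the deposited protein-coding count table whose gene name is Serpinb followed by a number. RNA was sequenced from the oesophagus of 10 C57BL/6 mice, all given the carcinogen 4-NQO (4-nitroquinoline 1-oxide) to induce tumours. Of these, 5 are labelled Grhl3 KO with tissue named as oesophageal tumour. The other 5 are labelled wild type with tissue named only as oesophageal, while the series' design text speaks of tumours for both. Grhl3 encodes a transcription factor of the grainyhead family that acts in epithelial barriers. The series title uses the abbreviation cKO and the table's columns L2Cre, and no source used here gives the Cre driver, ages or sexes. Genotype and tissue label differ between the same libraries, so their parts in any difference cannot be told apart. Library numbers also differ with genotype: all 5 Grhl3 KO libraries have numbers beginning with 10, as do wild-type libraries 1028 and 1048, while the other 3 begin with 15.

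A serpin holds out a flexible stretch, the reactive centre loop, as bait. A protease that cuts the loop is trapped in a covalent complex, and the sequence of the loop sets which protease is caught. Clade B members lack a classical secretion signal and act mostly inside cells. Many are abundant in stratified squamous epithelium such as the lining of the oesophagus, and the human counterparts of the Serpinb3 genes were first described as squamous cell carcinoma antigens. In the mouse, several single human genes correspond to clusters of duplicated copies.

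Libraries held 15.3 to 32.9 M counts each. Levels are given as CPM, counts per M (the SI prefix mega) after TMM scaling of library sizes, a trimmed-mean correction for composition. Grhl3 itself stood at 135 to 317 CPM in the libraries labelled Grhl3 KO, against 109 to 363 CPM in wild type. A gene-level count does not show whether part of the transcript is missing, so it does not check the genotype. The summed level of 4 Y-linked genes was 162 to 203 CPM in Grhl3 KO. In wild type it was 154 and 177 CPM in libraries 1028 and 1048, 72.3 CPM in 1561, and 0.0527 and 0.0539 CPM in 1528 and 1555. It was thus near 0 in 2 wild-type libraries and in no Grhl3 KO library, among them the highest libraries for Serpinb7 (1528) and Serpinb3c (1555), and its part in the comparisons below was not tested. The squamous identity of the tissue was borne by Krt13 at 4958 to 43057 CPM and Krt14 at 13163 to 20532 CPM over the 10 libraries.

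Of the 27 rows, 26 were found in the GENCODE M21 annotation of GRCm38, in a pair of clusters. On chromosome 1, 11 genes lie between 106861173 and 107610484, a span of 0.749 Mb that runs from Serpinb5 to Serpinb8. On chromosome 13, 15 genes lie between 32842092 and 34002794, a span of 1.16 Mb that runs from Serpinb1a to Serpinb6a. The row named Serpinb10 carries an identifier that was not found there. A gene of that name is annotated there under another identifier, as a polymorphic pseudogene that shares exonic bases with Serpinb2. A filter on low counts kept 16 members for testing, 10 of them on chromosome 1. Of the other 11, Serpinb10, Serpinb9c and Serpinb9d were at 0 in every library. There 3 counts, about the 95% upper limit for a count of 0, correspond to 0.0867 to 0.189 CPM. That limit covers only reads assigned to these rows, so it does not show that the genes were silent.

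Several members are near-copies of each other, which limits what a count per gene can show. The share of each transcript that lies within stretches of 75 bases at least 95% identical to another gene was 87.0% for Serpinb3a, 89.8% for Serpinb3b, 77.9% for Serpinb3c and 80.6% for Serpinb3d. For Serpinb9d, Serpinb9e, Serpinb9f and Serpinb9g it was 92.8% or more. It was 40.5% for Serpinb1a, 31.4% for Serpinb1b, 45.4% for Serpinb6c, 20.4% for Serpinb9, 16.4% for Serpinb6a and 15.6% for Serpinb6b. Serpinb2, Serpinb5, Serpinb7, Serpinb8, Serpinb11, Serpinb12 and Serpinb13 had 0.0%, though Serpinb2 shares some exonic bases with Serpinb10. No source used here says how reads that match several genes were counted, so single rows of the near-copies are uncertain and sums over each numbered group are given beside them.

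Among the Serpinb3 genes, Serpinb3c and Serpinb3d depart from Serpinb3a more in the loop than elsewhere, and Serpinb3b does not. The stretches below are the coding sequence of the reactive centre loop, from the codons of the conserved hinge to just before the conserved carboxy-terminal segment, read 5′ to 3′ from GENCODE transcripts of GRCm38. They are shown because the genes' counts are compared below. Capitals mark each base that differs from Serpinb3a in a pairwise alignment.
Serpinb3a: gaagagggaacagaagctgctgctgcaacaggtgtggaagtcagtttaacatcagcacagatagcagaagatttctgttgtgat
Serpinb3b: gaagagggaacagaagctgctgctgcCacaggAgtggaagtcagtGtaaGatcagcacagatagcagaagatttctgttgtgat
Serpinb3c: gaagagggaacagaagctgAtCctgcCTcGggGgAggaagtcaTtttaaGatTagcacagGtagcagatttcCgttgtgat
Serpinb3d: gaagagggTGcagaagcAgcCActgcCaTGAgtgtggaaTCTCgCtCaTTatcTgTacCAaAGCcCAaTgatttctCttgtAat
All 4 lie in the last exon of a gene on the minus strand of chromosome 1: chr1:107046091-107046174 for Serpinb3a, chr1:107154444-107154527 for Serpinb3b, chr1:107271704-107271784 for Serpinb3c and chr1:107078268-107078351 for Serpinb3d. In the loop, 95.2% of alignment columns matched between Serpinb3b and Serpinb3a, against 82.1% for Serpinb3c and 65.5% for Serpinb3d. A gap counts as a difference in these shares. Over the whole open reading frame the same shares were 92.6%, 91.2% and 89.2%. The loop of Serpinb3c is 81 bases long and the other 3 are 84, and the bases it lacks are not marked by capitals.

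Serpinb12, Serpinb3a and Serpinb5 made up most of the family's RNA in every library. Together they held 54.3% to 75.6% of the summed clade B level, which itself ran from 2229 to 5735 CPM. The sum averaged 3979 ± 841 CPM for Grhl3 KO, against 3875 ± 1583 CPM for wild type (SD, n = 5 each). Exonic length here takes in every annotated exon of a gene and can exceed its longest transcript. It was 5409 against 2191 bases for Serpinb6a, 2498 against 1689 for Serpinb12 and 1631 against 1620 for Serpinb3a. The order below therefore depends on this choice of length. Scaled by exonic length, the order of the means over the 10 libraries was Serpinb3a at 498 CPM per kb, Serpinb12 at 432 and Serpinb5 at 283. Serpinb2 at 156 CPM per kb and Serpinb1a at 119 followed, then Serpinb3c at 75.5, Serpinb11 at 49.0, Serpinb6a at 48.9 and Serpinb3b at 30.8. The other 7 tested members were at or below 8.47 CPM per kb, the value of Serpinb8. The ranges over the 10 libraries overlapped for all 15 pairs of neighbours in this order. These ranges do not compare neighbours within the same library, so they cannot show whether neighbours differ.

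**Figure D1:**
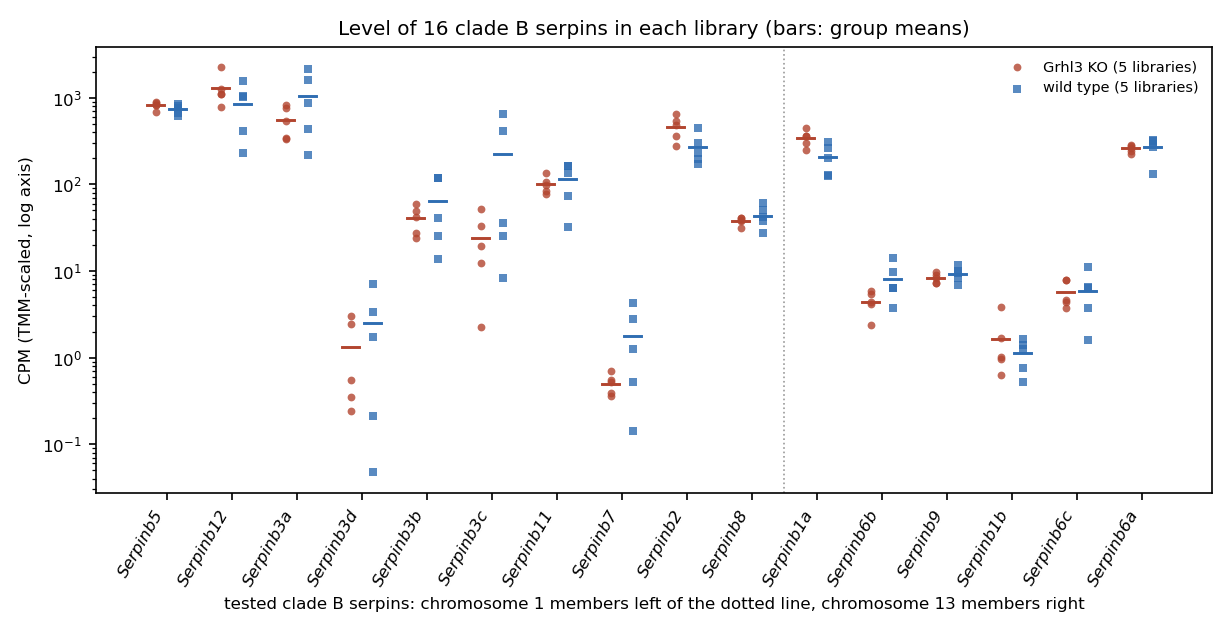
CPM on a log axis of the 16 tested clade B serpins, in chromosome order, with 1 point per library (circles Grhl3 KO, squares wild type) and a bar at each group mean. The groups overlap for every gene, the wild-type points are the more scattered for most genes, and Serpinb3c has 2 wild-type points far above the rest.

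No clade B serpin passed the test between Grhl3 KO and wild type. Of 16 tested, 0 had an adjusted p under 0.05 in edgeR's quasi-likelihood test, where 0.0801% of all 13731 genes did. The count was also 0 in DESeq2 and in limma voom. An unadjusted p under 0.05 was reached by 5 of 16, against 7.16% of all genes. That count was 2 in limma voom, where the 3 lower members were lost, and 2 to 6 with 1 library left out, the 2 being without wild-type library 1555. Of these 5, Serpinb1a and Serpinb2 were higher (2 of 16, against 3.44%) and Serpinb3c, Serpinb6b and Serpinb7 lower in Grhl3 KO (3 of 16, against 3.72%). The levels of the 2 groups overlapped for each of the 16, while they did not overlap for 1.35% of all genes. Fitted log2 fold changes, Grhl3 KO minus wild type, were above 0 for 5 members, against 49.7% of all genes, and their median was −0.18, against 0.00 over all genes. The members share libraries and near-identical sequence, so their counts are not independent of each other.

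The members varied more between animals than most genes did. The median standard error of the log2 fold change was 0.40 over the 16 members and 0.16 over all genes. The median SD of log2 CPM over the members was 0.49 for Grhl3 KO, 0.86 for wild type, against 0.22 and 0.28 over all genes. The SD was larger in wild type for 15 of the 16, Serpinb1b being the exception, and for 67.0% of all genes. A fold change of 0.50 or more in either direction on the log2 scale, which 10 of 16 members and 10.3% of all genes exceeded, must be read against that spread.

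Particular wild-type libraries set the extremes. Wild-type library 1561 was the lowest of all 10 for 8 members: Serpinb3a, Serpinb3b, Serpinb3d, Serpinb7, Serpinb9, Serpinb11, Serpinb12 and Serpinb1a. The same library was the highest for Serpinb6a and Serpinb6c. Wild-type libraries 1555 and 1028 were among the 2 highest for 8 and 7 members. For library 1028 all 7 lie on chromosome 1. Library 1028 was at the same time the lowest for Serpinb5, Serpinb6a, Serpinb8 and Serpinb1b, so its high values were not a general shift of the family. No Grhl3 KO library was among the 2 highest for more than 3 members.

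**Figure D2:**
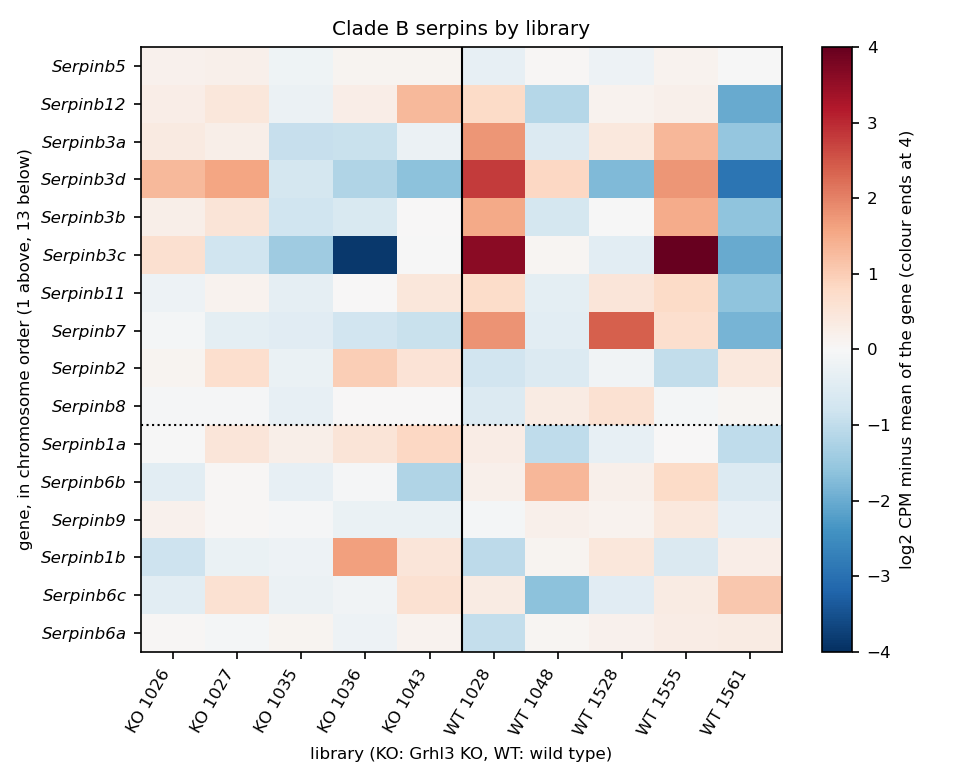
Log2 CPM of each tested clade B serpin minus its mean over the 10 libraries, with genes in rows in chromosome order and libraries in columns. Red is above and blue below the gene's mean, with the colour scale ending at 4 in each direction. The Serpinb3 genes, Serpinb11 and Serpinb7 are red together in wild-type libraries 1028 and 1555 and blue together in 1561.

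The Serpinb3 genes encode the mouse counterparts of the squamous cell carcinoma antigens, inhibitors of papain-like cysteine and chymotrypsin-like serine proteases. Serpinb3a stood at 824, 758, 339, 347 and 544 CPM in Grhl3 KO libraries 1026, 1027, 1035, 1036 and 1043. In wild-type libraries 1028, 1048, 1528, 1555 and 1561 it stood at 2161, 441, 864, 1625 and 217 CPM, and values by library keep this order below. The 5 Grhl3 KO values thus fell inside the wild-type range, and each was below the wild-type median. The fitted log2 fold change was −0.92 (SE 0.55, 95% limits −2.12 to 0.28; edgeR adjusted p = 0.792).

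Serpinb3c was the member with the widest spread. Its Grhl3 KO values were 52.5, 19.5, 12.5, 2.25 and 33.4 CPM, and its wild-type values 419, 35.6, 25.4, 645 and 8.28 CPM, in the same order of libraries. Wild-type libraries 1028 and 1555 stood far above the other 8, which overlapped between the groups. The highest library was 287-fold above the lowest, while the same ratio was 9.97 for Serpinb3a and 8.68 for Serpinb3b. For Serpinb3c the log2 fold change was −3.25 (SE 1.18, 95% limits −5.86 to −0.64; edgeR adjusted p = 0.575), the largest in size among the 16. With 1 library left out it ran from −3.75 to −2.36. Without libraries 1028 and 1555, an alternative chosen after the values were seen, it was 0.04 (edgeR adjusted p = 0.988). Under the same omission Serpinb3a was at 0.14, Serpinb3b at 0.59 and Serpinb3d at 0.99 on the log2 scale. These 2 libraries were chosen because they held the highest Serpinb3 values, so a smaller difference without them was fixed by the choice. The same omission took Serpinb12 from 0.61 to 1.23 and Serpinb1a from 0.74 to 1.17 (edgeR adjusted p = 0.380 and 0.155). Libraries 1028 and 1555 were also the 2 highest of wild type for Serpinb12 and Serpinb1a, so these rises were fixed by the choice as well.

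Serpinb3b followed Serpinb3a more closely than Serpinb3c did. Serpinb3b had Grhl3 KO values of 49.8, 59.6, 24.0, 27.8 and 42.0 CPM and wild-type values of 119, 25.7, 41.2, 118 and 13.7 CPM. In the fit its log2 fold change was −0.64 (95% limits −1.84 to 0.56; edgeR adjusted p = 0.872). The ratio of Serpinb3b to Serpinb3a counts was nearly constant, between 0.0477 and 0.0800 in the 10 libraries. The ratio of Serpinb3c to Serpinb3a ran from 0.00646 in Grhl3 KO library 1036 to 0.194 and 0.397 in wild-type libraries 1028 and 1555. Serpinb3c thus took 15.5% and 27.0% of the summed Serpinb3 counts in those 2 libraries and 0.594% to 7.07% in the other 8. The near-identity of 89.8% of the Serpinb3b transcript to other genes stands beside its constant ratio, and its part in that ratio was not tested. In the annotation Serpinb3b and Serpinb3c also share 35 exonic bases on the same strand.

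**Figure D3:**
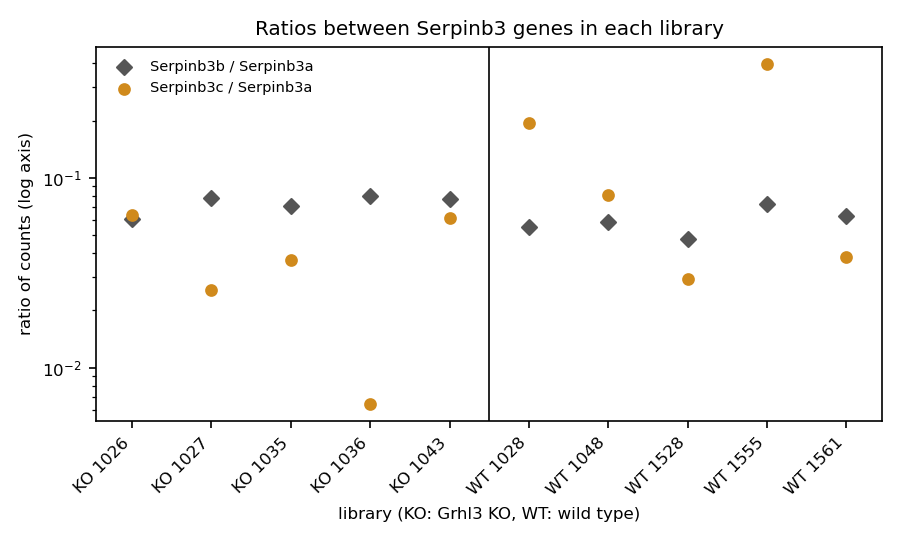
Ratio of Serpinb3b to Serpinb3a counts (diamonds) and of Serpinb3c to Serpinb3a counts (circles) in each of the 10 libraries, on a log axis. The diamonds stay between 0.0477 and 0.0800, while the circles run from 0.00646 to 0.397.

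Serpinb3d was scarce, at 0.239 to 3.01 CPM for Grhl3 KO, against 0.0471 to 7.07 CPM in wild type, the lowest value being a single count. Its log2 fold change was −0.92 (95% limits −3.18 to 1.35; edgeR adjusted p = 0.918), which was −0.02 without wild-type library 1028 and −1.52 without Grhl3 KO library 1027. The sum of the 4 rows does not depend on how reads were divided among them, but it does not restore reads that were dropped or counted more than once. Gm8080, Gm8084 and Gm8089, which are near-identical to all 4, are not in it. The sum was 628 ± 256 CPM for Grhl3 KO, against 1354 ± 1124 CPM in wild type (SD, n = 5 each), with a log2 fold change of −1.11 (95% limits −2.41 to 0.19; edgeR adjusted p = 0.760).

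The starts of these genes are also near-copies. The stretches below, from RefSeq on GRCm38.p6, surround the TATAAA motif (capitals) that begins 65, 41 and 31 bases before the annotated start of Serpinb3a, Serpinb3b and Serpinb3c. They are shown because the ratio of Serpinb3c to Serpinb3a varied between libraries, while that of Serpinb3b to Serpinb3a was nearly constant. This part of the promoters hardly differs among the 3 genes.
Serpinb3a: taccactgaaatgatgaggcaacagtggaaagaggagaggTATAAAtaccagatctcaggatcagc
Serpinb3b: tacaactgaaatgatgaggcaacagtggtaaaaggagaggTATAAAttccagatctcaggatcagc
Serpinb3c: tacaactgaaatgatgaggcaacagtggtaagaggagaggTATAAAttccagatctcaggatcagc
They lie at chr1:107052343-107052408, chr1:107161130-107161195 and chr1:107278377-107278442, all on the minus strand. The start used for Serpinb3b is that of RefSeq. In GENCODE, Serpinb3b also extends to 107278361, close to the start of Serpinb3c at 107278371. Of the 66 bases, 63 are shared by Serpinb3a and Serpinb3c, 62 by Serpinb3a and Serpinb3b, and 65 by Serpinb3b and Serpinb3c. The motif was searched on the strand of the gene in the 250 bases before each annotated start, and 7.59% of 32851 promoter entries hold it. It was not found in the entry of Serpinb3d.

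Serpinb2 and Serpinb1a were the members with an unadjusted p under 0.05 among those higher in Grhl3 KO. Serpinb2 encodes plasminogen activator inhibitor type 2, which inhibits urokinase and is induced by stress and inflammation in keratinocytes and macrophages. It stood at 358, 535, 276, 656 and 491 CPM for Grhl3 KO, against 196, 229, 302, 170.0 and 451 CPM in wild type. All 5 Grhl3 KO libraries lay above the wild-type median, but wild-type libraries 1528 and 1561 exceeded the lowest of them. Its log2 fold change came to 0.78 (SE 0.30, 95% limits 0.13 to 1.43; edgeR adjusted p = 0.614). By annotation, 12.4% of its exonic bases are shared with Serpinb10 on the same strand.

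Serpinb1a encodes an inhibitor of neutrophil elastase, proteinase 3 and cathepsin G, and is found in granulocytes as well as in epithelia. Its values were 251, 359.6, 298, 365 and 448 CPM for Grhl3 KO, against 311, 127, 204, 260.2 and 126 CPM in wild type. Each Grhl3 KO library exceeded the wild-type median, and wild-type libraries 1028 and 1555 exceeded the lowest of them. The log2 fold change was 0.74 (SE 0.26, 95% limits 0.16 to 1.33; edgeR adjusted p = 0.562). Its relatives Serpinb1b, at 0.519 to 3.82 CPM, and Serpinb1c, with 20 counts in all, were hardly detected, so the summed Serpinb1 rows gave the same 0.74 (edgeR adjusted p = 0.553). Serpinb1b alone had a log2 fold change of 0.54 (95% limits −0.58 to 1.65; edgeR adjusted p = 0.889), which was −0.08 without Grhl3 KO library 1036.

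Serpinb12 and Serpinb5 were abundant in every animal and behaved differently. Serpinb12 encodes an inhibitor of trypsin-like proteases in surface epithelia. Its Grhl3 KO values were 1109, 1258, 787, 1109 and 2257 CPM and its wild-type values 1560.1, 418, 1016, 1051 and 228 CPM, a 9.88-fold range over the 10 libraries. The highest value came from Grhl3 KO library 1043 and the 2 lowest from wild-type libraries 1561 and 1048. The fitted log2 fold change was 0.61 (95% limits −0.42 to 1.64; edgeR adjusted p = 0.849), and 0.32 without Grhl3 KO library 1043.

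Serpinb5 encodes maspin, a serpin without known inhibitory activity that has been described as a suppressor of mammary tumours. It was the steadiest member, with Grhl3 KO values of 868, 888, 679, 827 and 832 CPM and wild-type values of 612, 803, 667, 843 and 765 CPM. The highest library was 1.45-fold above the lowest. Its log2 fold change of 0.15 had 95% limits of −0.11 to 0.41 (edgeR adjusted p = 0.856), so a change larger than 0.41 in either direction lay outside the limits.

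The remaining members placed on chromosome 1 were Serpinb7, Serpinb8, Serpinb11 and Serpinb13. Serpinb7, whose human counterpart is mutated in a form of palmoplantar keratosis, was scarce: 0.692, 0.544, 0.520, 0.394 and 0.358 CPM for Grhl3 KO, against 2.78, 0.527, 4.22, 1.24 and 0.141 CPM in wild type. Wild-type libraries 1528, 1028 and 1555 lay above every Grhl3 KO library, and library 1561, with 3 counts, lay below them. Its log2 fold change came to −1.82 (SE 0.70, 95% limits −3.36 to −0.27; edgeR adjusted p = 0.622), and −1.22 without library 1528.

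Serpinb11 was at 76.8 to 135 CPM for Grhl3 KO, against 31.9 to 165 CPM in wild type, with a log2 fold change of −0.18 (95% limits −1.01 to 0.64; edgeR adjusted p = 0.962). Serpinb8, whose human counterpart inhibits furin, was at 31.6 to 40.5 CPM for Grhl3 KO, against 27.3 to 60.3 CPM in wild type. On the log2 scale its fold change was −0.20 (95% limits −0.60 to 0.20; edgeR adjusted p = 0.888). Neither gene separated the groups in either direction. Serpinb13, whose human counterpart headpin inhibits cathepsins L and K, had 26 counts in all, of which 14 came from wild-type library 1028.

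On chromosome 13, Serpinb6b was the member with an unadjusted p under 0.05 beside Serpinb1a. Its values were 4.15, 5.83, 4.39, 5.44 and 2.39 CPM for Grhl3 KO, against 6.41, 14.2, 6.43, 9.65 and 3.76 CPM in wild type. Wild-type library 1561 alone reached into the range of the Grhl3 KO libraries. The log2 fold change was −0.86 (SE 0.35, 95% limits −1.63 to −0.09; edgeR adjusted p = 0.654), and −0.56 without wild-type library 1048.

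Serpinb6a, a widely expressed copy of this group, was at 225 to 285 CPM for Grhl3 KO, against 133 to 324 CPM in wild type, where library 1028 at 133 CPM stood apart from the other 4 at 274 to 324 CPM. On the log2 scale its fold change was −0.05 (95% limits −0.50 to 0.41; edgeR adjusted p = 0.985). Serpinb6c was at 3.77 to 7.84 CPM for Grhl3 KO and 1.58 to 11.1 CPM for wild type (fitted log2 change −0.05 with 95% limits of −1.01 to 0.91; edgeR adjusted p = 0.992). The fold changes of Serpinb6a and Serpinb6c were too close to 0 to carry a direction, and several alternatives turned it. Serpinb6d and Serpinb6e had 2 and 3 counts in all. By annotation, exons of Serpinb6a overlap those of Nqo2, Ripk1 and 1110046J04Rik on the other strand. The 5 summed Serpinb6 rows had a log2 fold change of −0.06 (95% limits −0.50 to 0.37; edgeR adjusted p = 0.978).

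Serpinb9 encodes the inhibitor of granzyme B that protects cytotoxic lymphocytes and other cells from their own or foreign granzyme. It was low and even, at 7.22 to 9.69 CPM for Grhl3 KO, against 6.97 to 11.6 CPM in wild type. The fitted log2 fold change was −0.17 (95% limits −0.53 to 0.20; edgeR adjusted p = 0.898). Of the other rows numbered Serpinb9, Serpinb9e had 148 counts in all, Serpinb9b 74, Serpinb9g 27 and Serpinb9f 18. The 7 summed Serpinb9 rows were at 9.59 ± 0.507 CPM for Grhl3 KO, against 10.3 ± 2.29 CPM in wild type (SD, n = 5 each; edgeR adjusted p = 0.948).

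**Figure D4:**
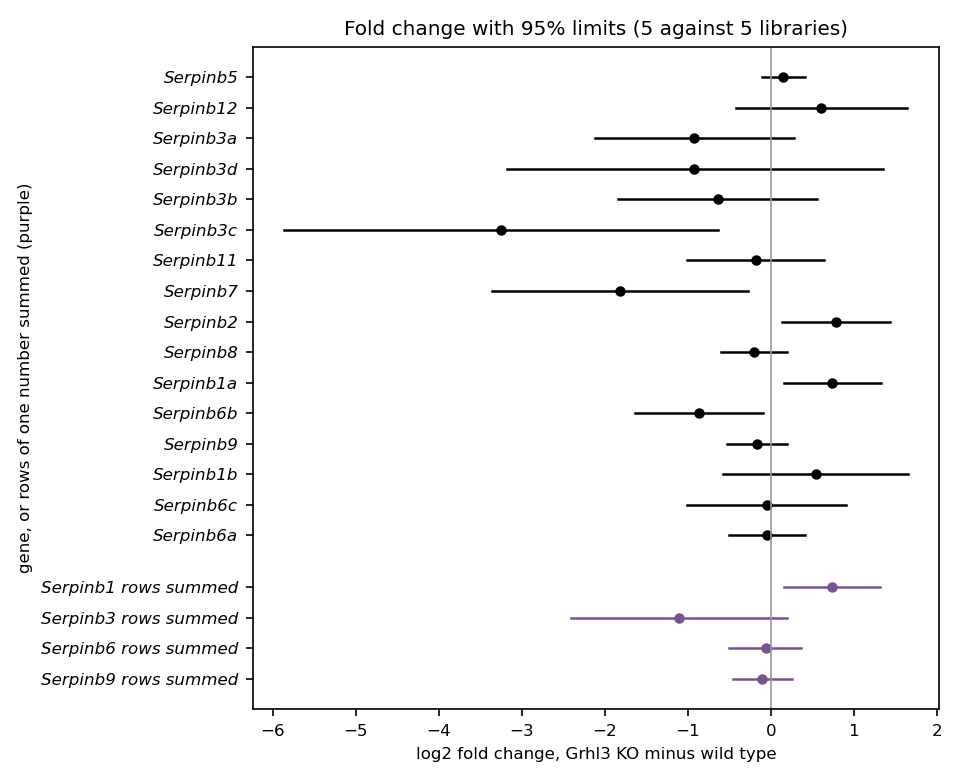
Log2 fold change, Grhl3 KO minus wild type, of the 16 tested clade B serpins (black) and of the summed rows of Serpinb1, Serpinb3, Serpinb6 and Serpinb9 (purple), with 95% limits from the fit over all genes. Among the 16 genes, the limits of Serpinb3c, Serpinb7, Serpinb6b, Serpinb2 and Serpinb1a leave out 0 before adjustment over all genes. Those of Serpinb5 and Serpinb9 are the narrowest of the 16.

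Promoter sequence was searched for motifs in the members with a RefSeq entry. The motif TGANTCA, a relaxed form of the site bound by AP-1, the Jun and Fos dimer that drives many squamous genes, reads the same on both strands. It was found in the 250 bases before an annotated start in 7 of 11 chromosome 1 members and 0 of 14 chromosome 13 members with an entry, against 6.75% of all 32851 entries. A member was counted where any of its entries held the motif, while the share is over single entries, so the units differ. The 11 include Serpinb10, which RefSeq places on chromosome 1. The strict form TGAGTCA, searched on both strands and contained in the relaxed form, was found in 2 of 25 members with an entry, Serpinb7 and Serpinb8. It was in 4.46% of all entries. The other members with the relaxed form held only TGAATCA or TGATTCA. The matches of 5 members are shown, with the motif in capitals, because these genes span the range from abundant to scarce.
Serpinb12: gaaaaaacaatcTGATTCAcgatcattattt
Serpinb2: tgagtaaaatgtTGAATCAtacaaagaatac
Serpinb5: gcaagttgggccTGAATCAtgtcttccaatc
Serpinb7: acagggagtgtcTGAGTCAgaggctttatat
Serpinb8: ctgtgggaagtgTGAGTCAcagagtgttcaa
They lie at chr1:106934392-106934422 (Serpinb12), chr1:107511317-107511347 (Serpinb2), chr1:106861023-106861053 (Serpinb5), chr1:107422632-107422662 (Serpinb7) and chr1:107589971-107590001 (Serpinb8), all on the plus strand of GRCm38.p6 in RefSeq. Serpinb10 and Serpinb11 also held the relaxed form, and the Serpinb3 genes did not. The grainyhead motif AACCGGTT, which reads the same on both strands, was in 0 member entries and in 0.116% of all entries. These are matches of letters, and no binding was measured.

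Among proteases known as targets of clade B serpins, 9 of 12 listed were tested. Of these, 5 were fitted higher and 4 lower under Grhl3 KO, 0 were called, and 0 had an unadjusted p under 0.05. The tissue-type plasminogen activator gene Plat was at 132 ± 64.7 CPM for Grhl3 KO, against 81.6 ± 45.7 CPM in wild type (SD, n = 5 each; log2 fold change 0.69; edgeR adjusted p = 0.810). The urokinase gene Plau was at 191 ± 35.1 CPM for Grhl3 KO and 221 ± 67.8 CPM for wild type (SD, n = 5 each; log2 fold change −0.21; edgeR adjusted p = 0.891). Of the lysosomal cathepsins, Ctsh was at −0.20 and Ctsb at −0.08 on the log2 scale (edgeR adjusted p = 0.897 and 0.918).

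Serpins of the other clades are mostly secreted. Of 34 listed, 11 were tested, 5 were fitted higher and 6 lower, with a median log2 fold change of −0.09, and 0 were called. Serpina3i was the 1 gene with an unadjusted p under 0.05, at 2.42 ± 1.02 CPM for Grhl3 KO, against 4.83 ± 2.76 CPM in wild type (SD, n = 5 each; log2 fold change −0.98; edgeR adjusted p = 0.651). Serpina12 had a log2 fold change of 1.29 and Serpina3n of 0.92 (edgeR adjusted p = 0.792 and 0.799).

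Epithelial markers also varied widely between libraries. The summed level of 12 suprabasal squamous markers was highest in wild-type library 1028, at 77134 CPM, and lowest in wild-type library 1561, at 12048 CPM. These were also the highest and lowest libraries for Serpinb3a. Krt13 and Krt4 made up most of the sum in 1028, at 43057 and 20906 CPM, and both were likewise lowest in 1561. Single markers did not all follow the sum. Ivl was at 1.93 CPM in 1028 and 29.4 CPM in 1561, and Krt78 was highest in wild-type library 1528, at 375 CPM. Wild-type library 1555, the second highest for Serpinb3a, had a sum of 35190.2 CPM, close to the 34198 CPM of 1528 and below the 39170.0 CPM of Grhl3 KO library 1043. In Grhl3 KO the sum ran from 17290.3 to 39170.0 CPM. All 12 markers were tested, 2 were higher and 10 lower in Grhl3 KO, against 49.7% of all genes higher. Of the 12, 0 were called, against 0.0801% of all genes, and 6 had an unadjusted p under 0.05, against 7.16%. Involucrin (Ivl) had a log2 fold change of −1.90, Sprr3 −1.13, Krt78 −1.59 and Crnn 0.88 (edgeR adjusted p = 0.504, 0.504, 0.568 and 0.607). The most abundant, Krt13 and Krt4, had −0.35 and −0.18 (edgeR adjusted p = 0.941 and 0.974). The part of suprabasal content in the Serpinb levels was not tested. In whole tissue, fewer cells of a type and less RNA per cell cannot be told apart.

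The sum of basal squamous markers was steadier, at 27777 to 36784 CPM for Grhl3 KO, against 30948 to 40411 CPM in wild type. Krt14 and Krt5 made up most of it. Of the single markers, Itgb4 ran from 303 CPM in wild-type library 1028 to 1686 CPM in 1528, while Trp63 ran from 442 to 647 CPM over the 10 libraries. Of 8 basal markers tested, 1 was higher, 7 were lower and 0 were called. Trp63 was at −0.18, Itgb4 at −0.54, Krt5 at −0.23, Dst at −0.24 and Krt14 at 0.05 on the log2 scale (edgeR adjusted p from 0.792 to 0.976).

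Markers of cells that carry particular serpins were measured beside them. Serpinb1a is a granulocyte serpin as well, and the summed level of 10 neutrophil markers ran from 74.0 to 657 CPM for Grhl3 KO and from 48.1 to 878 CPM in wild type. Mmp9 made up 728 of the 878 CPM in wild-type library 1528, while Ltf and Csf3r were highest in Grhl3 KO library 1036, at 561 and 34.1 CPM. The part of neutrophil content in the Serpinb1a level was not tested. Of 5 neutrophil markers tested, 3 were higher, 2 lower and 0 called, with Mmp9 at −1.96, Ltf at 1.13, Csf3r at 0.42 and Retnlg at −0.41 on the log2 scale (edgeR adjusted p from 0.795 to 0.967). For Serpinb9, 10 cytotoxic lymphocyte markers summed to 6.60 to 17.1 CPM for Grhl3 KO, against 3.69 to 26.7 CPM in wild type, with 3 of 7 tested higher, 4 lower and 0 called. Ccl5 was at −0.92, Gzma at −0.72, Gzmb at 0.46 and Cd3e at 0.34 (edgeR adjusted p from 0.824 to 0.950).

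Macrophages are a source of Serpinb2, and their marker sum was 164 to 244 CPM for Grhl3 KO, against 171 to 224 CPM in wild type, with 5 of 9 tested higher, 4 lower and 0 called. Lyz2 and Cd14 had log2 fold changes of 0.01 and −0.22, Cd68 −0.30, Mrc1 0.52 and C1qa 0.28 (edgeR adjusted p from 0.760 to 0.995). Mast cell markers summed to 6.04 to 13.3 CPM over the 10 libraries (3 of 4 tested higher, 0 called), with Tpsb2 at 1.03, Kit at −0.29, Mcpt4 at 0.50 and Cma1 at 0.51 on the log2 scale. Fibroblast markers summed to 159 to 429 CPM for Grhl3 KO and 207 to 338 CPM for wild type (3 of 5 tested higher, 0 called), with Dcn at 0.81, Col1a1 at −0.32, Lum at 0.93 and Col1a2 at −0.23. All 10 skeletal muscle markers were fitted higher under Grhl3 KO and 0 were called, with sums of 736 to 5174 CPM against 1207 to 2598 CPM for wild type. Here Mylpf was at 0.83, Myh4 at 1.61, Acta1 at 0.63, Des at 0.64 and Myh1 at 0.43 on the log2 scale. Grhl3 KO library 1043 was the highest for skeletal muscle, Serpinb12 and Serpinb1a. Library 1026, the second highest for muscle at 3059.6 CPM, had the lowest Serpinb1a of its group. Library 1036, the lowest for muscle, had the second-highest Serpinb1a. The part of muscle and stromal content in the Serpinb values was not tested.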

How the data were processed

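The deposited table holds whole-number read counts per protein-coding gene, made by the authors with featureCounts against GRCm38, per the submitters' processing notes. The file is named as reverse-stranded counts. Aligner, annotation release and the treatment of multiply matching reads: not given in the sources used here. Columns were joined to samples by the number in each title; 0 columns were left over. The members and gene lists were chosen with earlier results of these data known.

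Genes were filtered with filterByExpr (minimum count 10, minimum total count 15), which kept 13731, scaled by TMM and tested with the robust quasi-likelihood F-test of edgeR 4.0.16 in R 4.3.3. Benjamini-Hochberg adjustment ran over every gene kept, and an adjusted p under 0.05 was called. Log2 CPM carries a prior count of 2. Exonic lengths come from GENCODE M21, and similarity from blastn alignments read in windows of 75 bases. Text names all members and, per list, up to 4 genes of smallest p and, for cell types, the 2 most abundant. One gene that this rule names is not reported here. The scripts were tested on simulated data. DESeq2 1.42.0 and limma 3.58.1 were alternatives, beside other scalings, other filters, omission of libraries and summed paralog rows.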

Additional observations from a re-analysis of the deposited data

Results flagged for a closer look

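In 32 groups of 5 values (16 genes in each of the 2 groups), a single library stood apart from the other 4 in 2 groups, where chance flags about 1 in 20. Serpinb8 was at 31.6 CPM in Grhl3 KO library 1035, with the other 4 Grhl3 KO libraries at 38.3 to 40.5 CPM. Serpinb6a was at 133 CPM in wild-type library 1028, and 274 to 324 CPM in the remaining 4 of that group.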

How the results depend on the processing

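The count of clade B serpins called was 0 under every alternative run, including each omission of 1 library (0 to 0). The number of genes called over the whole table, 11 in the fit reported, was 119 in DESeq2, 1 in limma voom, 7 without a filter on low counts, 1 with only the libraries whose numbers begin with 10 (all 5 Grhl3 KO, wild-type 1028 and 1048), 4 without wild-type libraries 1028 and 1555, and 1 to 16 with 1 library left out. Serpinb1a, Serpinb2, Serpinb5, Serpinb6b, Serpinb7, Serpinb8, Serpinb9 and Serpinb12 kept their direction throughout. In limma voom Serpinb11 was at 0.02, Serpinb6a at 0.02 and Serpinb6c at 0.13 on the log2 scale. With only the libraries whose numbers begin with 10, Serpinb6a was at 0.35, Serpinb6c at 0.50 and the Serpinb6 sum at 0.31. Without wild-type libraries 1028 and 1555, Serpinb3a was at 0.14, Serpinb3b at 0.59, Serpinb3c at 0.04, Serpinb3d at 0.99, the Serpinb3 sum at 0.16, Serpinb11 at 0.31 and Serpinb6c at 0.04, while Serpinb12 moved to 1.23 and Serpinb1a to 1.17. This omission was chosen after the values were seen. It took out the highest wild-type values of the Serpinb3 genes, Serpinb11, Serpinb12 and Serpinb1a, so the direction of their shifts was fixed by the choice. With 1 library left out, Serpinb6a ran from −0.22 to 0.03, Serpinb6c from −0.29 to 0.32, Serpinb1b from −0.08 to 0.73 and the Serpinb6 sum from −0.24 to 0.01; the cause was not tested. Serpinb7 was not tested with the filter of 1 CPM in 5 libraries. No paired analysis was possible because no sample number occurs in both groups. Members at a few counts allow no comparison at this depth.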
